A study of Mus musculus with 4 samples.

Results

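Endoderm forms more than once in the early mouse embryo, and 10 genes that mark it were followed here in mouse embryonic stem cells (ESCs). The genes were *Gata4*, *Gata6*, *Sox7*, *Sox17*, *Pdgfra*, *Dab2*, *Foxa2*, *Hnf4a*, *Afp* and *Amn*, picked out by symbol from a list drawn up with earlier results of these data known, and each was found once among the 19645 features of the files. RNA sequencing was performed on 2 libraries of wild-type (WT) ESCs and 2 libraries of *Bmal1* KO ESCs, in which *Arntl*, the gene of the circadian regulator BMAL1, carries a frameshift deletion made with CRISPR-Cas9. All cells were undifferentiated and grown on gelatin in serum medium with leukaemia inhibitory factor. The KO cells are a single picked clone, and whether the libraries of a genotype came from separate cultures is not said in the labels, so p-values measure only the spread between these libraries. An effect of the deletion cannot be told apart from any other way in which the clone differs from its parent line.

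Primitive endoderm is the layer of the blastocyst that lies next to the epiblast, the tissue that ESCs resemble, and it goes on to form the visceral and parietal endoderm of the yolk sacs. Fibroblast growth factor (FGF) signalling through FGFR1 and FGFR2 to ERK induces it, GATA6 and NANOG oppose each other in the choice between epiblast and primitive endoderm, and SOX17, GATA4 and SOX7 follow GATA6. Definitive endoderm arises later, at gastrulation, from cells that express *Eomes*, and uses *Sox17* and *Foxa2* again. ESC cultures hold a small and changing fraction of cells with primitive endoderm transcripts.

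The level of each gene was given as FPKM, a fragment density corrected for transcript length and sequencing depth, which the authors estimated with Cufflinks. The files carry no read numbers. Values of low features in libraries with the same replicate number nevertheless fell on steps, with 18.8% of 1149 low features within 2% of the ratio 0.92 for WT 1 over KO 1, and 22.6% of 1160 within 2% of the ratio 1.00 for WT 2 over KO 2. In the other pairs of libraries, 4.01% to 6.14% lay within 2% of the most common ratio. Why pairs with the same number differ from the rest was not tested. The spacing of the steps in 373 to 456 genes with a single annotated transcript put the normalising total at about 19500000 to 26000000 fragments per library. On a transcript of 2 kb, a single fragment is then worth 0.0215 to 0.0261 FPKM. The values below therefore rest on few fragments. *Arntl* itself was 6.05 and 6.29 FPKM in WT and 5.95 and 5.92 FPKM in KO, so its transcript level does not check the labels. The Y-linked *Ddx3y* was 0.235 and 0.403 FPKM in WT and 16.4 and 20.6 FPKM in KO, a difference between the lines that lies outside the edited gene. ESC identity was clear in all libraries, with *Pou5f1* (OCT4) at 1389 to 1620 FPKM and *Prdm14*, the lowest of 12 ESC markers by its main feature, at 8.06 to 10.1 FPKM. The 13 features of these markers summed to 7246 and 7062 FPKM in WT and to 6922 and 6492 FPKM in KO. Of all 12990 features tested, 6.85% rose and 5.60% fell at an adjusted p under 0.05 from limma. Of the ESC markers, *Fgf4* and *Tdgf1* are counted again in the lists of related genes below. Of the 13 features 2 rose (*Fgf4* and *Tfcp2l1*) and 3 fell (*Klf4*, *Tdgf1* and *Utf1*) at that threshold, all by less than 2-fold. These counts were 0 and 0 with no trend in the variance, 3 and 7 with the replicate block, 1 and 2 without WT replicate 1, 0 and 2 without WT replicate 2 or KO replicate 1, and 0 and 1 without KO replicate 2.

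All 10 endoderm markers were low. Their mean FPKM over the 4 libraries ran from 0.00526 for *Afp* to 0.534 for *Gata4*, between the 2.28th and the 34.5th percentile of all features, and the highest value of any marker in any library was 0.709 FPKM. Of the 10 genes, 9 were listed above 0 in all 4 libraries. At least 0.1 FPKM was reached in all 4 libraries by 3 genes (*Gata4*, *Sox7* and *Amn*), in 1 to 3 libraries by 4 (*Gata6*, *Dab2*, *Hnf4a* and *Foxa2*) and in no library by 3 (*Pdgfra*, *Sox17* and *Afp*). Only *Gata4* passed the minimum mean of 0.5 FPKM that was set for testing. The other 9 were compared in the same limma model fitted to all 19645 features with no minimum.

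**Figure D1:**
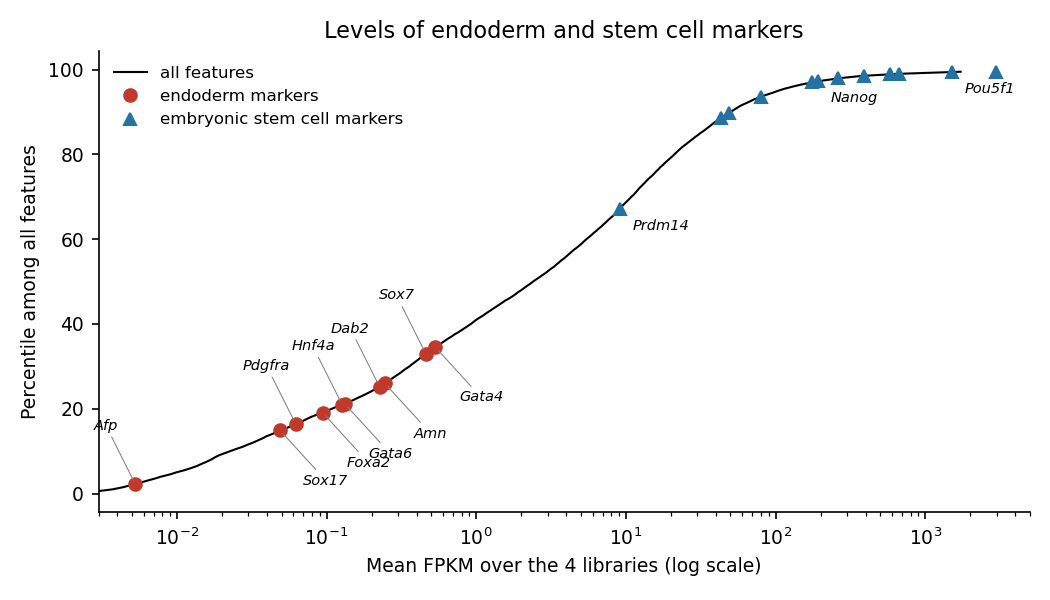
Mean FPKM of a gene over the 4 libraries (x axis, log scale) against its percentile among all 19645 features (y axis). The line is all features, red points are the 10 endoderm markers and blue triangles are 12 ESC markers, each by its main feature. The endoderm markers lie between the 2.28th and the 34.5th percentile, to the lower left of the ESC markers.

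Among the transcription factors, the order of levels differed between the genotypes. In WT ESCs *Gata4*, a zinc finger factor of primitive endoderm and heart, was highest at 0.600 and 0.561 FPKM, and *Sox7*, a SOX factor of primitive and parietal endoderm, followed at 0.260 and 0.247 FPKM. In *Bmal1* KO ESCs *Sox7* was highest at 0.709 and 0.627 FPKM, and *Gata4* followed at 0.528 and 0.445 FPKM. The ranges of the 2 genes did not overlap in either genotype. The ratio of *Sox7* to *Gata4* was 0.433 and 0.440 in WT and 1.34 and 1.41 in KO.

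*Sox7* (ENSMUSG00000063060.6, GRCm38 chromosome 14 from 63943673 to 63950732, plus strand) has 1 annotated transcript, of 3299 bases. At the step estimated above, its values correspond to about 17 to 20 fragments in a WT library and 40 to 49 fragments in a KO library. The mean was 0.253 ± 0.00904 FPKM in WT and 0.668 ± 0.0578 FPKM in KO (SD, n = 2), a ratio of 2.64, and the 2 KO values lay above the 2 WT values. On the scale of log2(FPKM + 0.1), which understates changes of low genes, the difference was 1.12 (standard error 0.24, 95% interval 0.51 to 1.73). It did not pass the threshold after adjustment over all features (adjusted p = 0.0727 from limma). In bulk RNA, more cells that express a gene cannot be told apart from more RNA per cell.

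*Gata4* (ENSMUSG00000021944.15, chromosome 14 from 63198922 to 63271692, minus strand) was the single marker tested with the minimum applied. Its feature ends at 63245260, so it leaves out the upstream start of the gene. Its KO values lay below its WT values, as in 31.7% of tested features (27.0% lay above). The log2 difference of -0.22 had a 95% interval from -0.91 to 0.48 (adjusted p = 0.653 from limma). It was not called, against 4.14% of the tested features.

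*Gata6* (ENSMUSG00000005836.10, chromosome 18 from 11052064 to 11085635, plus strand), the factor at the top of the primitive endoderm programme, was 0.102 and 0.168 FPKM in WT and 0.166 and 0.0904 FPKM in KO. The genotypes overlapped, with a log2 difference of -0.05 (95% interval -0.81 to 0.71, adjusted p = 0.939 from limma). The feature of *Gata6* starts at 11042037, before the annotated start of the gene. It overlaps 1010001N08Rik, an RNA annotated on the other strand. Whether the counting used strand is not given in the sources used here.

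*Sox17* (ENSMUSG00000025902.13, chromosome 1 from 4490931 to 4497354, minus strand), which acts in both primitive and definitive endoderm, was 0.0321 and 0.0559 FPKM in WT and 0.0798 and 0.0277 FPKM in KO. The genotypes overlapped here too, with a log2 difference of 0.08 (95% interval -0.59 to 0.75, adjusted p = 0.877 from limma). Without WT replicate 1, WT replicate 2, KO replicate 1 or KO replicate 2 in turn, the differences of *Gata6* and *Sox17* ran from -0.29 to 0.19 and from -0.17 to 0.33, so neither had a stable direction.

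**Figure D2:**
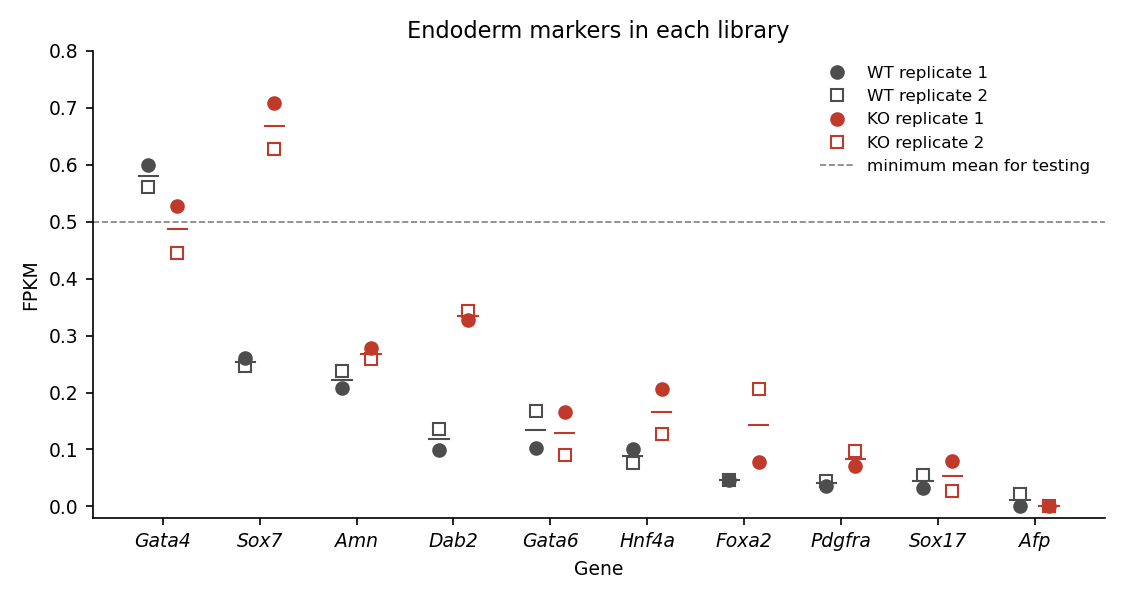
FPKM (y axis, linear) of the 10 endoderm markers (x axis, ordered by mean) in each library. Grey symbols are WT and red symbols KO, filled circles are replicate 1, open squares replicate 2, short bars the group means (n = 2), and the dashed line is the minimum mean for testing of 0.5 FPKM. *Sox7* and *Dab2* show the widest gaps between genotypes, while *Gata6* and *Sox17* overlap.

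Of the surface and adaptor proteins, *Dab2* (ENSMUSG00000022150.16, chromosome 15 from 6299788 to 6440712, plus strand) had the largest difference. It encodes an endocytic adaptor that primitive and visceral endoderm need to sort their apical proteins. Its level was 0.0993 and 0.136 FPKM in WT and 0.327 and 0.343 FPKM in KO, a ratio of means of 2.85. The 2 KO values were close to each other and above both WT values. The log2 difference was 1.00 (standard error 0.24, 95% interval 0.39 to 1.62), and it too missed the threshold over all features (adjusted p = 0.0887 from limma). The gene overlaps the antisense RNA Gm16311 and the pseudogene Gm18888, both on the other strand. Genes on the other strand also overlap the features of *Sox17* (Gm37587), *Pdgfra* (Gm42802 and Gm42803), *Afp* (Gm43449) and *Eomes* (Gm33460). Reads of such partners cannot be told apart here.

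*Amn* (ENSMUSG00000021278.7, chromosome 12 from 111271095 to 111276426, plus strand) encodes amnionless, which carries cubilin to the apical membrane of visceral endoderm. It was 0.208 and 0.237 FPKM in WT and 0.278 and 0.258 FPKM in KO. The KO libraries were slightly above the WT libraries, with a log2 difference of 0.19 (95% interval -0.41 to 0.79, adjusted p = 0.665 from limma).

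*Pdgfra* (ENSMUSG00000029231.15, chromosome 5 from 75152292 to 75198215, plus strand), a receptor that marks primitive endoderm and also mesenchyme, was 0.0356 and 0.0451 FPKM in WT and 0.0707 and 0.0974 FPKM in KO. Both KO libraries were higher, by a log2 difference of 0.39 (95% interval -0.15 to 0.92, adjusted p = 0.343 from limma), at a level that stayed under 0.1 FPKM throughout. Fibroblasts also express *Pdgfra*. Of 10 fibroblast markers 7 were in the files, and 3 of these, the defining collagen genes *Col1a2* and *Col3a1* and the proteoglycan gene *Dcn*, stayed under 0.1 FPKM in all libraries. The collagen gene *Col1a1* was 0.217 and 0.105 FPKM in WT and 0.139 and 0.138 FPKM in KO, and the receptor gene *Pdgfrb* was 0.302 and 0.236 FPKM in WT and 0.382 and 0.400 FPKM in KO. Of the 2 tested, *Fn1*, which ESCs also express, rose by less than 2-fold (log2 difference 0.50, adjusted p = 0.0206 from limma) and *Thy1* did not pass. Without *Fn1* the fibroblast markers summed to 2.23 and 1.91 FPKM in WT and to 3.31 and 2.66 FPKM in KO, most of it *Thy1*. Their part in the result was not tested.

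Promoter sequences from RefSeq (GRCm38.p6) were at hand for 6 of the 10 genes, with 10 start sites. BMAL1 with CLOCK binds the E-box CACGTG, and GATA factors bind several related motifs of which AGATAA is one form, so CACGTG and AGATAA were searched on both strands of the 250 bases before each start. Other forms of the GATA motif, such as TGATAA, were not searched. The E-box, which reads the same on both strands, was present before 1 of the 10 starts, that of *Amn*, and in 6.02% of all 32851 windows. AGATAA was present before 2 of the 10 starts, 1 each of *Foxa2* and *Hnf4a*, and in 9.99% of all windows, and no window of these genes held both. Shown are the window of *Amn*, the one with an E-box, in capitals from 26 bases before the start (chr12:111270846-111271095, plus strand), and those of the 2 starts of *Dab2*, with a ratio of means of 2.85, which held neither CACGTG nor AGATAA (chr15:6299539-6299788 and chr15:6386498-6386747, plus strand):
Amn: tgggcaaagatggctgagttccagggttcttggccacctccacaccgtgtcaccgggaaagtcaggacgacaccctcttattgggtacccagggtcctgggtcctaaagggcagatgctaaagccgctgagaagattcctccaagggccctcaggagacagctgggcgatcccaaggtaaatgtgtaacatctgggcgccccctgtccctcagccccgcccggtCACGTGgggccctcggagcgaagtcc
Dab2, upstream start: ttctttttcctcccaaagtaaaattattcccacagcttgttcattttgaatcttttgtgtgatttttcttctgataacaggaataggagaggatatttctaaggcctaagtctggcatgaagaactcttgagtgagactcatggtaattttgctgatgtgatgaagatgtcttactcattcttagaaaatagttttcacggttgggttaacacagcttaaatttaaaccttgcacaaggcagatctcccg
Dab2, downstream start: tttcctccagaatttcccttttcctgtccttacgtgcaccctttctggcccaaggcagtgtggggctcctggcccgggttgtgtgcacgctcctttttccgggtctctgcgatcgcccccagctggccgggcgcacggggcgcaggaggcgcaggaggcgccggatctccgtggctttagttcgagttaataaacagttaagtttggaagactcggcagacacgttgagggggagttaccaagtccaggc
The presence of these letters is not evidence of binding, and their absence says nothing about either factor.

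The remaining 3 markers belong to later endoderm. *Foxa2* (ENSMUSG00000037025.11, chromosome 2 from 148042877 to 148046969, minus strand), a pioneer factor of definitive endoderm and node, was 0.0462 and 0.0461 FPKM in WT and 0.0785 and 0.206 FPKM in KO. The KO libraries differed from each other by more than the lower one differed from WT. The log2 difference was 0.68 (95% interval -0.15 to 1.51, adjusted p = 0.293 from limma), and 0.29 without KO replicate 2. *Hnf4a* (ENSMUSG00000017950.16, chromosome 2 from 163506808 to 163572910, plus strand), a nuclear receptor of visceral endoderm and liver, was 0.10 and 0.0771 FPKM in WT and 0.206 and 0.127 FPKM in KO. Both KO libraries were higher, by a log2 difference of 0.48 (95% interval -0.18 to 1.15, adjusted p = 0.343 from limma). The feature of *Hnf4a* starts at 163547188, so it leaves out the upstream start of the gene, the start with AGATAA before it. *Afp* (ENSMUSG00000054932.6, chromosome 5 from 90490737 to 90508907, plus strand), the alpha-fetoprotein that visceral endoderm and fetal liver secrete, was listed at 0 in WT replicate 1 and in both KO libraries and at 0.0210 FPKM in WT replicate 2, about the worth of a single fragment.

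Across the 10 genes, the KO values exceeded the WT values without overlap for 6 (*Sox7*, *Dab2*, *Foxa2*, *Hnf4a*, *Pdgfra* and *Amn*) and lay below them for 1 (*Gata4*), and 3 overlapped. The same held upward for 25.1% of all features and downward for 26.2%. In the band of 2829 features with a mean of 0.1 to 0.5 FPKM, these shares were 30.7% and 21.9%. Of the 10 genes, only *Sox7*, *Amn*, *Dab2*, *Hnf4a* and *Gata6* lie in that band. All of these but *Gata6* had higher KO values without overlap. A rise of the means by more than 2-fold with separated libraries, as in *Sox7* and *Dab2*, was seen in 17.9% of the features in that band. *Foxa2* (ratio of means 3.08) and *Pdgfra* (2.08) rose in the same way, at means under 0.1 FPKM and so below the band. A feature was called when it changed by over 2-fold and its adjusted p from limma was below 0.05. With no minimum, 0 of the 10 genes were called, against 2.36% of all features (1.61% upward). An unadjusted p from limma below 0.05 was reached by 2 of the 10, *Sox7* and *Dab2*, against 23.5% of all features and 23.8% of those in the band. For 1 gene alone, exact permutation of 2 against 2 libraries cannot give a two-sided p below 0.333. The median log2 difference of the 10 genes was 0.29, and -0.01 over all features. It depended on the pseudocount, at 0.06 with a pseudocount of 1 and 0.53 with a pseudocount of 0.01. The summed level of the 10 genes was 1.48 and 1.59 FPKM in WT and 2.44 and 2.22 FPKM in KO. *Sox7* and *Dab2* made up most of that gap: the other 8 genes summed to 1.12 and 1.21 FPKM in WT and to 1.41 and 1.25 FPKM in KO.

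**Figure D3:**
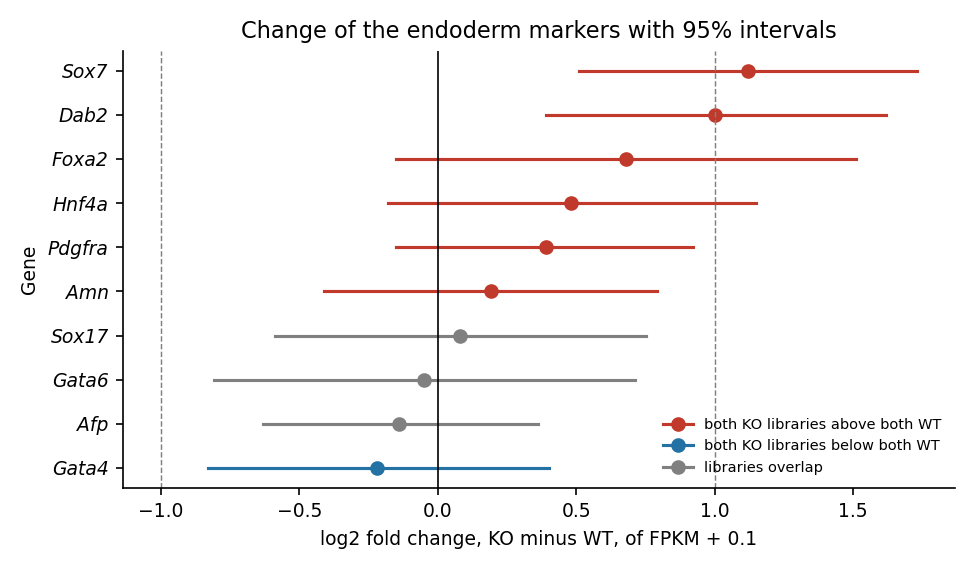
Log2 fold change of KO minus WT on the scale of FPKM + 0.1 (x axis) for the 10 endoderm markers (y axis), with 95% intervals from limma fitted to all features (n = 2 libraries per genotype). Colours show whether both KO libraries lay above or below both WT libraries, and dashed lines mark 2-fold changes. The intervals of *Sox7* and *Dab2* exclude 0, and neither passed the adjusted threshold.

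*Gata4* and *Sox7* lie on the same chromosome, with 698445 bases and 6 features with a symbol between them, and their differences had opposite signs. Of their nearest neighbours, *Neil2*, a DNA glycosylase gene beside *Gata4*, was 3.13 and 2.65 FPKM in WT and 5.83 and 5.20 FPKM in KO (log2 difference 0.91, adjusted p = 0.0157 from limma). *Pinx1*, 23846 bases before *Sox7*, was 24.1 and 25.8 FPKM in WT and 18.7 and 21.8 FPKM in KO (log2 difference -0.30, adjusted p = 0.119 from limma). *Msra*, on the other side of *Sox7*, had a log2 difference of 0.55 (adjusted p = 0.0503 from limma). The neighbours of *Dab2*, *Ptger4* at 1055601 bases and *Fyb* at 139137 bases, had log2 differences of -0.11 and 0.06. Both neighbours of *Foxa2*, *Pax1* at 667828 bases and *Thbd* at 357501 bases, were also low with higher KO values. *Thbd* is also counted in a list of endoderm genes below. *Pax1* was 0.0354 and 0.0168 FPKM in WT and 0.241 and 0.133 FPKM in KO, and *Thbd* was 0.0117 and 0 FPKM in WT and 0.0778 and 0.0839 FPKM in KO. Of all 20 neighbours 12 were tested, and *Neil2* was the 1 with an adjusted p under 0.05 from limma, against 12.5% of all tested features. Among the 12, KO values lay above WT values for 3 and below for 5, against 27.0% and 31.7% of all tested features. Among the 8 not tested, they lay above for 4 and below for 1, against 21.4% and 15.5% of all features not tested. Besides *Pax1* and *Thbd*, those 4 were *Gsx2*, beside *Pdgfra* (0.0846 and 0.0287 FPKM in WT, 0.161 and 0.198 FPKM in KO), and *Rassf6*, beside *Afp* (0.109 and 0.118 FPKM in WT, 0.139 and 0.400 FPKM in KO).

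Other genes of the endoderm programmes were then followed in 4 written lists. In the tables of all features 2.72% were called up and 1.42% down among the 12990 tested, and 6.85% had an adjusted p under 0.05 with a higher and 5.60% with a lower level in KO. Of 31 further genes of primitive, visceral and parietal endoderm, 17 were tested. Of these, 3 rose, 3 fell and 11 did not pass, with a median log2 difference of 0.25 against -0.02 for all tested features. The median was -0.07 with a minimum mean of 1 FPKM and 0.01 without WT replicate 1. All 3 that rose were called. *Apoe*, an apolipoprotein of yolk sac endoderm and many other tissues, was 482 and 497 FPKM in WT and 1632 and 1610 FPKM in KO (log2 difference 1.73, standard error 0.08, adjusted p = 0.00115 from limma). *Rhox5*, an X-linked homeobox gene active in extraembryonic lineages, was 2.48 and 3.33 FPKM in WT and 20.0 and 17.6 FPKM in KO (log2 difference 2.66, standard error 0.16, adjusted p = 0.00169 from limma). *Fgfr2*, the FGF receptor of primitive endoderm and trophoblast, was 0.184 and 0.172 FPKM in WT and 1.07 and 1.08 FPKM in KO (log2 difference 2.08, standard error 0.29, adjusted p = 0.0119 from limma). *Fgfr2* passed the minimum only through its KO libraries, and with a pseudocount of 1 its difference was 0.82, below 2-fold. Like *Apoe*, the 3 that fell are made more widely than in endoderm. *Lrp2* (megalin, a partner of cubilin in uptake) was 6.76 and 6.61 FPKM in WT and 3.41 and 4.12 FPKM in KO, *Lamb1* (a basement membrane laminin chain) fell from 16.5 ± 1.01 to 11.3 ± 0.241 FPKM, and *Sparc* (a secreted matrix protein) from 62.6 ± 1.29 to 50.5 ± 1.08 FPKM (SD, n = 2). Of the 13 genes of the list that were not tested, 6 had KO values above and 0 had KO values below the WT values, against 21.4% and 15.5% of all 6655 features that were not tested.

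In the list of 22 genes of definitive and anterior endoderm, 14 were tested, 0 rose, 4 fell and 10 did not pass, with a median of -0.15 (0.04 with no minimum). The counts that rose and fell were 1 and 7 with the replicate block, 0 and 2 with no trend in the variance, 2 and 4 without WT replicate 1, and 1 and 3 without KO replicate 2. *Eomes*, the T-box factor that starts definitive endoderm, was called, with 2.21 and 2.25 FPKM in WT and 0.463 and 0.775 FPKM in KO (log2 difference -1.73, adjusted p = 0.0154 from limma). *Otx2* (log2 difference -0.78), the epithelial adhesion gene *Epcam* (-0.51) and the NODAL co-receptor gene *Tdgf1* (-0.36), the gene with the highest mean of the list, fell by less than 2-fold, and all 3 are also active in undifferentiated ESCs. *Ttr* of the first list and *Cer1* of the second were not analysed here.

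Among the 8 GATA factors and their FOG cofactors 4 were tested, 1 rose and 3 did not pass. *Gata2*, a factor of blood and trophoblast, was 0.718 and 0.513 FPKM in WT and 2.01 and 1.28 FPKM in KO (log2 difference 1.27, adjusted p = 0.0475 from limma). Its call was lost without KO replicate 1 (adjusted p = 0.144 from limma), with no minimum (0.0960), with no trend in the variance (0.0665) and, by size, with a pseudocount of 1. *Gata1*, an erythroid factor that was added after its values were seen, was 0.807 and 0.833 FPKM in WT and 0.286 and 0.414 FPKM in KO (log2 difference -1.05, adjusted p = 0.0792 from limma). With no trend in the variance it was the 1 gene of the list that passed (adjusted p = 0.0392 from limma), so that the list then held 0 genes that rose and 1 that fell. *Zfpm1* (FOG1), which had the highest mean of this list over the 4 libraries, was 1.06 and 0.991 FPKM in WT and 1.44 and 1.45 FPKM in KO (log2 difference 0.46, adjusted p = 0.170 from limma). The list also holds *Gata4* and *Gata6*, with the values given above.

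The last list held FGF and ERK genes that act ahead of primitive endoderm. Its 18 genes gave 19 tested features, of which 7 rose, 0 fell and 12 did not pass, with a median log2 difference of 0.30. Besides *Fgfr2*, the ERK phosphatase gene *Dusp4* was called, with 3.22 and 2.86 FPKM in WT and 8.15 and 8.92 FPKM in KO (log2 difference 1.46, standard error 0.12, adjusted p = 0.00403 from limma). The other 5 rose by less than 2-fold. These 5 were also active in WT ESCs, at means from 24.4 FPKM (*Dusp6*) to 84.5 FPKM (*Etv5*). They were *Dusp6* (log2 difference 0.55), the ETS factor gene *Etv5* (0.44), which had the highest mean of this list over the 4 libraries, the feedback inhibitor gene *Spry4* (0.42), a merged feature of *Pygo2* and the adaptor gene *Shc1* (0.42), whose reads cannot be divided between the 2 genes, and the ligand gene *Fgf4* (0.30). The number of features that rose was 3 with no minimum, with no trend in the variance, without WT replicate 2 or without KO replicate 1, and 8 with quantile normalization. In all of these 0 fell.

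**Figure D4:**
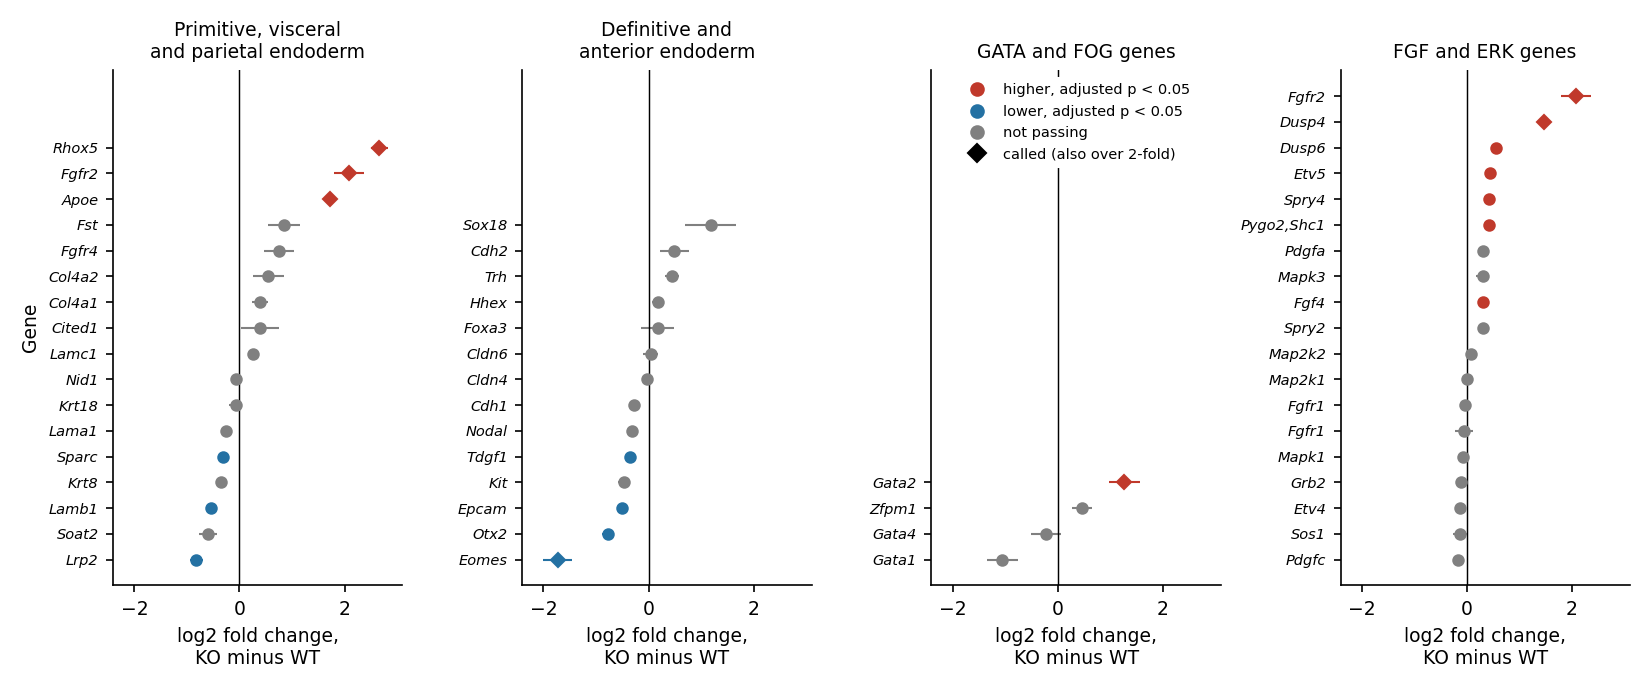
Log2 fold change of KO minus WT on the scale of FPKM + 0.1 (x axis) for the tested genes (y axis) of the 4 lists, with standard errors as bars (n = 2 libraries per genotype). Red is higher and blue lower in KO at an adjusted p under 0.05 from limma, grey did not pass, and diamonds were called. The FGF and ERK panel holds 7 red points and no blue point.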

How the data were processed

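RNA of 2 WT and 2 *Bmal1* KO ESC libraries was depleted of rRNA and sequenced. The authors aligned reads to GRCm38 with TopHat2 2.1.1 and Bowtie2 2.3.0 and deposited FPKM values from Cufflinks 2.2.1, 1 file per library. Median FPKM was 2.32 to 2.46. No per-sample column was left unused (0).

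Differences were fitted to log2(FPKM + 0.1) with limma 3.58.1 in R 4.3.3 (variance trend, Benjamini-Hochberg adjustment) over 12990 features whose mean reached 0.5 FPKM, and over all 19645 features for markers below that. Calls needed an adjusted p under 0.05 and over 2-fold. The script was tested on simulated data. Named were all markers, and of each list the genes called, those with an adjusted p under 0.05 and the one with the highest mean, plus nearest neighbours of the markers, the others of which were counted. Markers and lists were chosen with earlier results of these data known. Alternatives varied the pseudocount, minimum, scaling, trend, replicate block and libraries used. Intervals cover the spread between libraries only.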

Additional observations from a re-analysis of the deposited data

How the results depend on the processing

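None of the 10 endoderm markers was called under any of the alternatives run, but many of these could not call most of them. Only *Gata4* was tested where the minimum of 0.5 FPKM was kept. With a minimum of 1 FPKM 0 of the 10 were tested, with 0.1 FPKM 6, and with no minimum all 10. Combinations with no minimum, and a minimum of 0.1 FPKM, were chosen after seeing the data. Over all features 538 were called, against 231 with a pseudocount of 1 and 622 to 815 without 1 library (815 without WT replicate 1). With no minimum, 190 were called with a pseudocount of 1, 140 with no trend in the variance and 0 without any 1 library, where 3194 to 3448 had an unadjusted p under 0.05. Of the 52 related features tested, 6 were called, against 4.14% of all tested features. *Fgfr2*, among these, passed the minimum only through its KO libraries. With no minimum and no trend, 3 related genes were called. With the replicate block 632 features, 0 markers and 6 related genes were called. The numbers share no stated origin, and replicate differences correlated at r = 0.0712 (rho = 0.387) across 12990 features. The FGF and ERK features that rose numbered 10 with the block. With no minimum and all 4 libraries, *Sox7* had log2 differences of 0.41 to 1.36 (adjusted p 0.0441 to 0.0841 from limma) and *Dab2* 0.26 to 1.45 (0.0560 to 0.129). The lowest p of *Sox7* came with a pseudocount of 1, below 2-fold. Without 1 library the adjusted p from limma was 0.247 to 0.280 for *Sox7* and 0.232 to 0.283 for *Dab2*. *Afp* was near a single fragment, and *Sox17* and *Pdgfra* stayed under 0.1 FPKM in all libraries, which limits what could be detected for these genes.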
